A study of Homo sapiens with 20 samples.

Results

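The 39 HOX genes of the human genome were followed through dexamethasone treatment and BCOR depletion in HEK293-GR cells. They were taken by symbol from the 27896 gene symbols of the count table (HOXA, HOXB, HOXC or HOXD followed by a number), so membership rests on the name alone. HEK293-GR is a derivative of the embryonic kidney line HEK293 that carries the glucocorticoid receptor, and every group used it. RNA was measured in 16 poly(A)-selected libraries, in 4 groups of 4 that the labels call biological replicates: siBCOR with dexamethasone, siBCOR with vehicle, siNON with dexamethasone, and siNON with vehicle. siBCOR is a pooled siRNA that depletes the corepressor BCOR, siNON its non-targeting control, each used at 20 nM for 72 h, and dexamethasone (a synthetic glucocorticoid, 100 nM) or its ethanol vehicle was given for 6 h. All cells were kept in steroid-depleted medium. BCOR binding was mapped by ChIP-seq in HEK293-GR cells, for which the labels name no siRNA, after 1 h of dexamethasone or vehicle, with 2 libraries for each treatment.

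HOX genes encode homeodomain transcription factors that specify position along the body axis. They lie in 4 clusters, HOXA to HOXD, and are numbered by paralog group: low numbers act anteriorly, towards the hindbrain, and high numbers posteriorly, towards the pelvis and the ends of the limbs. Polycomb complexes keep the clusters silent where they are not used, trithorax and MLL complexes keep them active, and retinoic acid and CDX proteins act upstream in the embryo. BCOR is a subunit of a variant Polycomb repressive complex 1. In the mouse, Hoxa11, Hoxc11 and Hoxd11 together are needed to start the permanent kidney.

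The promoters of 4 HOX genes are shown because these genes had a BCOR peak within 1 kb of their start and an entry among the RefSeq promoters used here (GRCh38.p14, 250 bases before to 50 after the start, 5′ to 3′ on the gene's strand). Capitals mark CpG dinucleotides. HOXA4 lies at chr7:27130708-27131007 (minus strand), HOXA9 at chr7:27165488-27165787 (minus), HOXD11 at chr2:176107030-176107329 (plus) and HOXD8 at chr2:176129455-176129754 (plus).
HOXA4: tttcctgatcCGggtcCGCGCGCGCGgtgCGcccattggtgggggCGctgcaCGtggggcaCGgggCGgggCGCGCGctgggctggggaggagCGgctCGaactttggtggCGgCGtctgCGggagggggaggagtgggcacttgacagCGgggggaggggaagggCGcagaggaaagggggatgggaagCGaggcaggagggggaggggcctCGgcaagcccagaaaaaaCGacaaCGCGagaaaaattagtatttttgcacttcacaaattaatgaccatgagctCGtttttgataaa
HOXA9: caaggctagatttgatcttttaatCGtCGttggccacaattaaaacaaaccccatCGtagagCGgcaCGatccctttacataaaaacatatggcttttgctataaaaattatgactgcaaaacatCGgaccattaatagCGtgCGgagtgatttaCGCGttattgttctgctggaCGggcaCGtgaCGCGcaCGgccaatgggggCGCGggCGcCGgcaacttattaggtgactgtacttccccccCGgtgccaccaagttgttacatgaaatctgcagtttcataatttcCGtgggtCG
HOXD11: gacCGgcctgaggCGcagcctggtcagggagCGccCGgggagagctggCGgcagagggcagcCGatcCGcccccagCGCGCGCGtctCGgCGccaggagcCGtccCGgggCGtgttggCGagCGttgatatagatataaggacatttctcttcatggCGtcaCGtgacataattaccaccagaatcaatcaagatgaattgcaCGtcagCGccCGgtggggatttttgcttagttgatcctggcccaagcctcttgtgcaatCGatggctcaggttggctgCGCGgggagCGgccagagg
HOXD8: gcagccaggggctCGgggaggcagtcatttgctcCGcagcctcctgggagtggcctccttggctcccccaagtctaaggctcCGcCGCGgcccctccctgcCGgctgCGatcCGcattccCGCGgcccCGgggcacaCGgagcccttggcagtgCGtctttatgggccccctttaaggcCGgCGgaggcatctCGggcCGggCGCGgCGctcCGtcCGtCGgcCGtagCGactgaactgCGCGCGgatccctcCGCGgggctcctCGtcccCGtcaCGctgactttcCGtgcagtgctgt
These windows held 27, 22, 27 and 34 CpG. Promoter windows were matched for 20 HOX genes, 27 windows in all, of which 7 belong to HOXA3 and 26 are distinct (HOXC4 and HOXC5 share a sequence), with a median of 22 CpG, against 14 over 35116 promoter windows of all genes. The HOX windows held between 0 and 44 CpG. The ratio of observed to expected CpG had a median of 0.85 in the HOX windows and 0.58 over all. The core letters TAAT, which many homeodomains bind, were in 21 of the 27 (77.8%), against 50.2% of all windows, counting both strands, and in 14 of the 19 distinct windows outside HOXA3 (73.7%). The palindromic receptor element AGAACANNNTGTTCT was in 0 of the 27 and in 1 of the 35116, and its first block AGAACA in 5 (18.5%), against 14.8% of all. These matches describe the letters only.

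Between 18580291 and 28054809 reads per library fell on the transcripts used, and HOX transcripts took 0.0493% to 0.129% of them. BCOR (hg19 chromosome X, 39910499 to 39956719) averaged 14.7 ± 0.706 CPM (read counts scaled to library size) in siBCOR dex cells and 93.8 ± 15.9 CPM in siNON dex cells, and 22.4 ± 0.795 CPM in siBCOR vehicle cells and 196 ± 29.4 CPM in siNON vehicle cells (SD, n = 4 each). The siRNA groups did not overlap in either treatment, and siNON cells also had less BCOR RNA with dexamethasone than with vehicle (log2 fold change -1.06 ± 0.113 SE, edgeR adjusted p = 1.51e-06). Of 7 genes that mark this line all were detected, and VIM and NEFL reached at least 128 CPM in every library, whereas UMOD and AQP2 of the differentiated kidney tubule had 1 read each in all libraries together. LRP2, a proximal tubule gene, stood at 29.6 to 63.7 CPM. PTPRC and CD3E of immune cells and DCN of fibroblasts were at most 0.173 CPM in any library, but COL1A1 reached 22.5 to 44.1 CPM. Replicate 4 of siNON dex and replicate 3 of siNON vehicle stood furthest from their groups (root mean square deviation 0.280 and 0.266 log2 units, against 0.143 to 0.257 in the other 14 libraries), so the counts below are also given without both.

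HOX RNA in these cells was mostly of central and posterior genes. In siNON vehicle cells, the order by RPKM (CPM per kilobase of exon, which allows comparison between genes) was led by HOXA9 at 75.2 ± 2.65, HOXB9 at 61.3 ± 6.73, HOXA10 at 46.6 ± 4.32 and HOXA5 at 23.6 ± 0.354 RPKM (SD, n = 4), with no overlap between neighbours down to the next gene, HOXA11 (19.9 ± 1.62). From HOXA11 to HOXC5, the 5th to the 33rd gene, each gene's libraries overlapped those of its neighbours in the order. At the low end, HOXD1 and HOXD3 overlapped each other at 1.503 ± 0.297 and 1.41 ± 0.0719 RPKM, and HOXA2 stood below both at 0.709 ± 0.0432 RPKM.

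Levels followed position in the cluster only loosely. The 16 genes of paralog groups 9 to 13 had a median of 14.4 RPKM in siNON vehicle cells, the 15 of groups 4 to 8 a median of 6.71, and the 8 of groups 1 to 3 a median of 2.48. Each class held a wide range, from 0.102 to 75.2 RPKM in the posterior, from 2.85 to 23.6 in the central and from 0.00985 to 19.5 in the anterior genes. HOXB2 was the anterior gene at the top, and HOXC12 the posterior gene at the bottom. The remaining 3 genes were close to absent: HOXB1 had 3 reads over all 16 libraries, HOXC12 29 and HOXD12 45, and they were too low to test. Neighbours of these silent genes were not silent, since HOXC13 stood at 8.43 ± 0.926 RPKM, HOXD11 at 19.3 ± 1.78 and HOXD13 at 17.3 ± 1.33 RPKM in siNON vehicle cells.

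**Figure D1:**
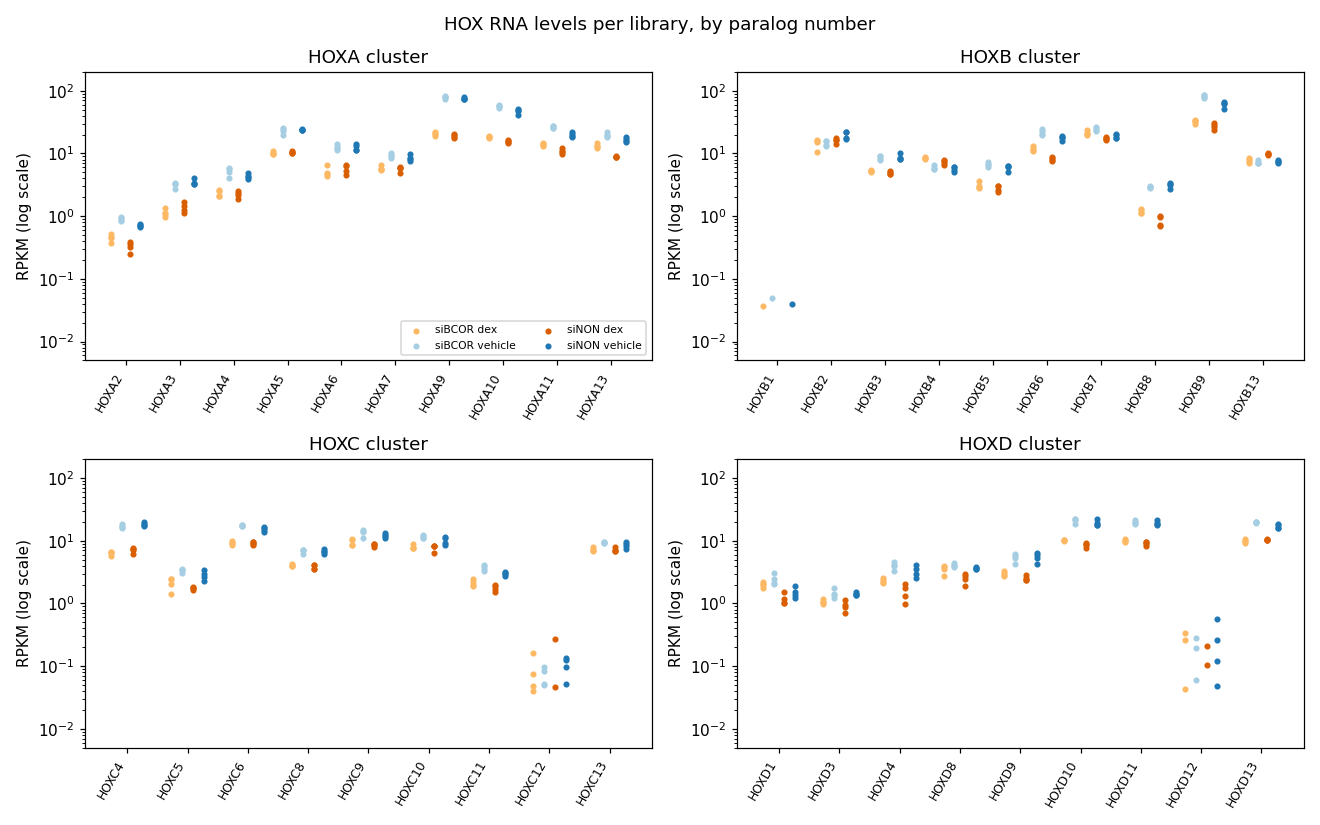
HOX RNA levels in each library, in RPKM on a log axis, by cluster and paralog number. Points are the 4 libraries of each group, and libraries with no read are not drawn. HOXA9, HOXB9 and HOXA10 lead with vehicle, and HOXB9 leads with dexamethasone. The means of HOXA2, HOXB1, HOXC12 and HOXD12 lie below 1 RPKM in every group.

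Summed over genes, the HOXA cluster gave the most RNA with vehicle and the HOXB cluster with dexamethasone. In siNON vehicle cells the 11 genes of HOXA came to 215.7 ± 9.22 RPKM and the 10 of HOXB to 148 ± 9.43. The 9 of HOXC came to 77.0 ± 5.77 and the 9 of HOXD to 71.2 ± 1.39 RPKM there (SD, n = 4). With dexamethasone HOXB came to 106 ± 5.79 and HOXA to 94.3 ± 3.77 RPKM in siBCOR cells, where their libraries overlapped. In siNON dex cells HOXB came to 94.6 ± 4.55 and HOXA to 82.9 ± 3.11 RPKM, without overlap. In siNON vehicle cells the HOXA, HOXB and HOXD sums rested on few genes. The median gene there stood at 12.5 RPKM in HOXA, 8.11 in HOXB and 3.64 in HOXD, and at 8.43 RPKM in HOXC. With dexamethasone the sum over all 39 genes was 291 ± 13.1 RPKM in siBCOR cells, against 578 ± 17.7 with vehicle, and 261 ± 9.78 RPKM in siNON cells, against 512 ± 20.7 with vehicle. The dexamethasone libraries lay below the vehicle libraries in both kinds of cell, the highest at 303 and the lowest at 494 RPKM. In bulk RNA, fewer cells expressing a gene and less RNA per cell cannot be told apart.

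Dexamethasone lowered most HOX genes within 6 h. In siBCOR cells, 30 of the 36 tested HOX genes fell and 1 rose, in edgeR's quasi-likelihood test at a Benjamini-Hochberg adjusted p of 0.05 over 16432 genes, against 12.6% of all tested genes that fell and 10.4% that rose. In siNON cells, 30 fell and 2 rose, against 8.59% and 10.6% of all tested genes. The median log2 fold change of the 36 genes was -0.86 in siBCOR cells, where that of all tested genes was 0.0035, and -0.86 in siNON cells, where it was -0.0044. In siBCOR cells 13 of the 36 were at least 2-fold lower, against 1.16% of all tested genes, and in siNON cells 15 were, against 1.44%. Since no library serves both comparisons, the overlap can be counted: 29 HOX genes fell in both kinds of cell, as did 5.61% of all tested genes. For all 31 HOX genes called in siBCOR cells, and all 32 in siNON cells, the 4 dexamethasone libraries lay wholly on one side of the 4 vehicle libraries, which held lower for 15.4% and higher for 15.3% of all tested genes in siBCOR cells and for 8.75% and 11.1% in siNON cells. The summed level of the 7 genes that mark the line, most of it from VIM and NEFL, was also lower with dexamethasone. It stood at 509.6 to 539 CPM in siBCOR dex libraries, against 691 to 746 CPM in siBCOR vehicle. In siNON dex it stood at 575 to 615 CPM, against 755 to 917 CPM in siNON vehicle. The sum of 5 markers of the differentiated kidney tubule, LRP2 among them and UMOD and AQP2 near 0, was lower too, at 32.4 to 34.4 CPM in siBCOR dex libraries, against 53.5 to 65.1 CPM in siBCOR vehicle, and at 31.1 to 37.5 CPM in siNON dex, against 49.1 to 61.8 CPM in siNON vehicle. The part of either marker list in the result was not tested.

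The response ran through all 4 clusters. In siBCOR cells 11 of 11 tested HOXA, 5 of 9 HOXB, 8 of 8 HOXC and 6 of 8 HOXD genes fell. In siNON cells, 11 of 11 HOXA genes fell, as did 7 of 8 HOXC and 7 of 8 HOXD genes, while 5 of 9 HOXB genes fell and the 2 that rose were both of that cluster. The median log2 fold change in siNON cells was -1.09 in HOXA, -0.85 in HOXB, -0.72 in HOXC and -0.91 in HOXD. By position in siNON cells, 5 of 7 anterior, 13 of 15 central and 12 of 14 posterior genes fell, with medians of -0.60, -0.94 and -0.89. The differences between clusters or positions were not tested.

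**Figure D2:**
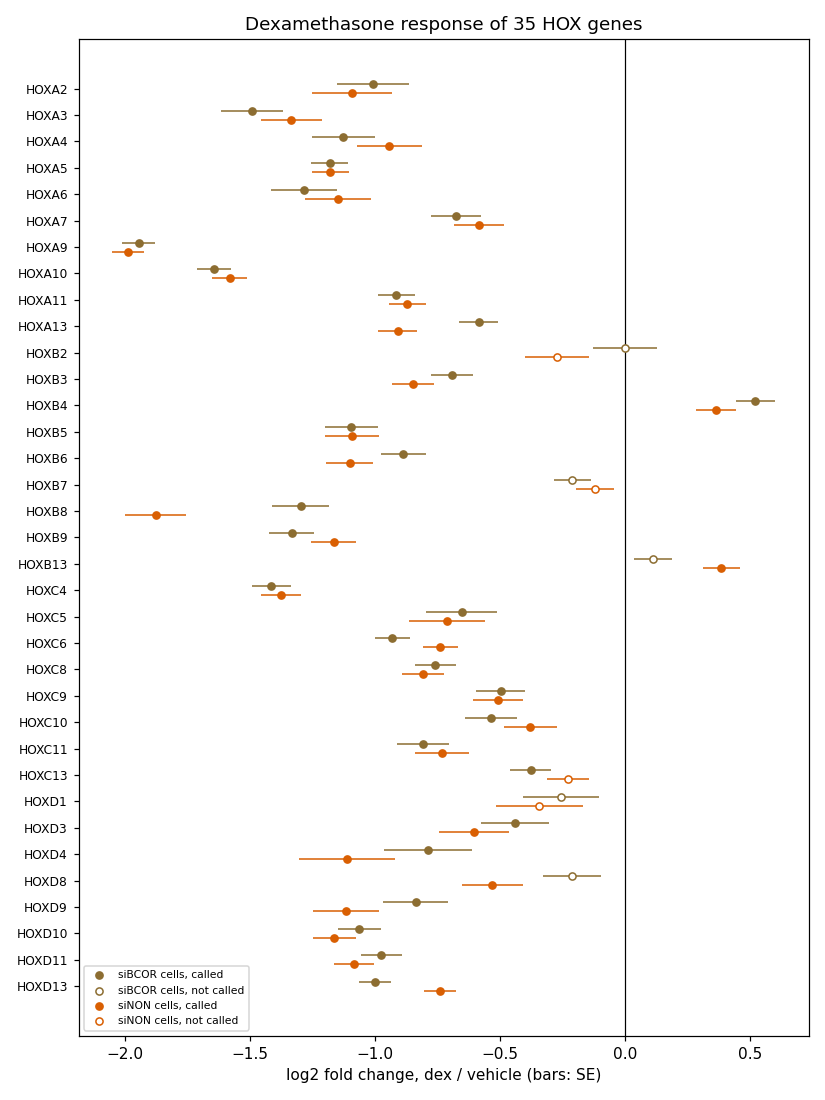
Log2 fold change of dexamethasone over vehicle for 35 tested HOX genes, with SE bars, in siBCOR and siNON cells. Filled points passed an adjusted p of 0.05, and 29 genes in each kind of cell are filled to the left of 0.

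HOXA9, a transcription factor of blood progenitors that is often overexpressed in leukaemia, lost the most. It stood at 43.5, 41.8, 44.9 and 38.3 CPM in the 4 siBCOR dex libraries, against 162, 153, 169.6 and 164 CPM in siBCOR vehicle. In siNON cells it stood at 41.3, 40.9, 37.2 and 36.2 CPM with dexamethasone, against 162, 152, 152 and 151 CPM with vehicle. The groups were far apart, with nothing between 44.9 and 151 CPM. The log2 fold change was -1.94 ± 0.0641 SE in siBCOR cells (adjusted p = 2.67e-13) and -1.99 ± 0.0644 in siNON cells (adjusted p = 1.53e-13), or 3.85-fold and 3.96-fold lower.

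HOXA10, its neighbour, which patterns the uterus and the lumbar spine in the mouse, fell as well. With dexamethasone it stood at 38.7, 40.5, 40.2 and 41.0 CPM in siBCOR cells, against 128, 116, 130.1 and 127 CPM with vehicle. In siNON cells the values were 32.5, 36.1, 34.4 and 34.0 CPM with dexamethasone, against 106, 89.0, 104 and 111 CPM with vehicle. No dexamethasone library came near a vehicle library, and the log2 fold changes were -1.64 ± 0.0684 in siBCOR and -1.58 ± 0.0687 in siNON cells (edgeR adjusted p = 6.7e-12 and 9.24e-12). HOXA5, which the mouse needs for lung and airway development, averaged 16.8 ± 0.758 CPM in siBCOR dex cells and 38.1 ± 4.04 CPM in siBCOR vehicle cells, and 17.2 ± 0.523 CPM in siNON dex cells and 39.02 ± 0.585 CPM in siNON vehicle cells (SD, n = 4 each). Its log2 fold change was -1.18 in both kinds of cell, and its groups did not overlap.

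In the HOXC cluster, HOXC4 fell most. It stood at 14.9, 15.0, 15.5 and 13.1 CPM in siBCOR dex libraries, against 36.2, 42.2, 38.8 and 39.1 CPM in siBCOR vehicle. In siNON cells it stood at 16.7, 16.2, 17.4 and 14.4 CPM with dexamethasone, against 45.1, 41.1, 39.3 and 42.6 CPM with vehicle. Every dexamethasone library was below every vehicle library, with log2 fold changes of -1.41 ± 0.0785 and -1.38 ± 0.0783 (adjusted p = 3.23e-10 and 3.91e-10 in edgeR). HOXC6 is a thoracic patterning gene. The transcript used for it shares its annotated start with that of HOXC4, at hg19 chromosome 12, 54410636. Another HOXC6 isoform, with 9431 reads against 9616, starts at 54422194. HOXC6 averaged 19.1 ± 1.18 CPM in siBCOR dex cells and 36.5 ± 0.973 CPM in siBCOR vehicle cells. In siNON cells it averaged 19.1 ± 0.842 CPM with dexamethasone and 31.8 ± 2.34 CPM with vehicle (SD, n = 4 each). Its log2 fold change was -0.93 ± 0.069 in siBCOR and -0.74 ± 0.0693 in siNON cells.

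HOXB9 of the HOXB cluster, a thoracic patterning gene, averaged 87.4 ± 4.86 CPM in siBCOR dex cells and 220.2 ± 12.8 CPM in siBCOR vehicle cells, and 73.7 ± 8.71 CPM in siNON dex cells and 165 ± 18.1 CPM in siNON vehicle cells. Both pairs of groups were apart, with log2 fold changes of -1.33 ± 0.0893 and -1.16 ± 0.0893 (edgeR adjusted p = 4.19e-09 and 2.09e-08). HOXD10, which acts in lumbar motor neurons and the hindlimb in the mouse, averaged 18.3 ± 0.473 CPM in siBCOR dex cells and 38.1 ± 3.17 CPM in siBCOR vehicle cells, and 15.4 ± 1.22 CPM in siNON dex cells and 34.4 ± 3.64 CPM in siNON vehicle cells. HOXD13, the most posterior gene of its cluster and a gene of digit formation, fell by 1.00 in siBCOR and by 0.74 in siNON cells on the log2 scale, where HOXD10 fell by 1.06 and 1.16.

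HOXB4 was the exception that held in both kinds of cell. This gene, known for expanding blood stem cells when overexpressed, stood at 17.7, 17.4, 17.03 and 16.8 CPM in siBCOR dex libraries, against 12.03, 11.3, 11.4 and 13.3 CPM in siBCOR vehicle. In siNON cells it stood at 14.4, 15.7, 15.6 and 13.5 CPM with dexamethasone, against 10.4, 11.2, 12.4 and 12.1 CPM with vehicle. The dexamethasone libraries were the higher ones throughout, with log2 fold changes of 0.52 ± 0.0793 (adjusted p = 9.83e-05) and 0.36 ± 0.08 (adjusted p = 0.003). HOXB13, a partner of the androgen receptor in prostate, stood at 21.1, 25.6, 25.2 and 23.0 CPM in siBCOR dex libraries, against 21.0, 24.0, 21.6 and 21.2 CPM in siBCOR vehicle, and these groups overlapped (log2 fold change 0.11 ± 0.0746, edgeR adjusted p = 0.293). In siNON cells it stood at 29.5, 29.2, 31.1 and 28.1 CPM with dexamethasone, against 22.6, 22.3, 21.3 and 24.1 CPM with vehicle, with no overlap (0.38 ± 0.0743, edgeR adjusted p = 0.001).

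Within a paralog group the values spread widely, a spread that was not tested. In siNON cells, HOXA9, HOXB9, HOXC9 and HOXD9 had log2 fold changes of -1.99, -1.16, -0.51 and -1.11, and all 4 were called. In group 4, HOXA4, HOXC4 and HOXD4 had -0.94, -1.38 and -1.11 beside 0.36 for HOXB4. In group 13, HOXA13 and HOXD13 had -0.91 and -0.74, HOXC13 had -0.23 without passing the test (edgeR adjusted p = 0.0661), and HOXB13 had 0.38. Other genes called lower in siNON cells lay between -1.88 (HOXB8) and -0.38 (HOXC10): HOXA3 had -1.33, HOXB6 -1.10, HOXA6 -1.15, HOXB5 -1.09, HOXA2 -1.09, HOXD11 -1.08, HOXA11 -0.87, HOXB3 -0.85, HOXC8 -0.81, HOXC11 -0.73, HOXC5 -0.71, HOXD3 -0.60, HOXA7 -0.58 and HOXD8 -0.53. The genes with no call in either kind of cell were HOXB2, HOXB7 and HOXD1. HOXC13 was called in siBCOR cells (-0.38 ± 0.0826), HOXD8 was not (-0.21, edgeR adjusted p = 0.2).

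Leaving out each library in turn gave 29 to 31 HOX genes lower and 1 higher in siBCOR cells, and 29 to 31 lower and 2 higher in siNON cells. Without replicate 4 of siNON dex and replicate 3 of siNON vehicle together, 31 fell in each.

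**Figure D3:**
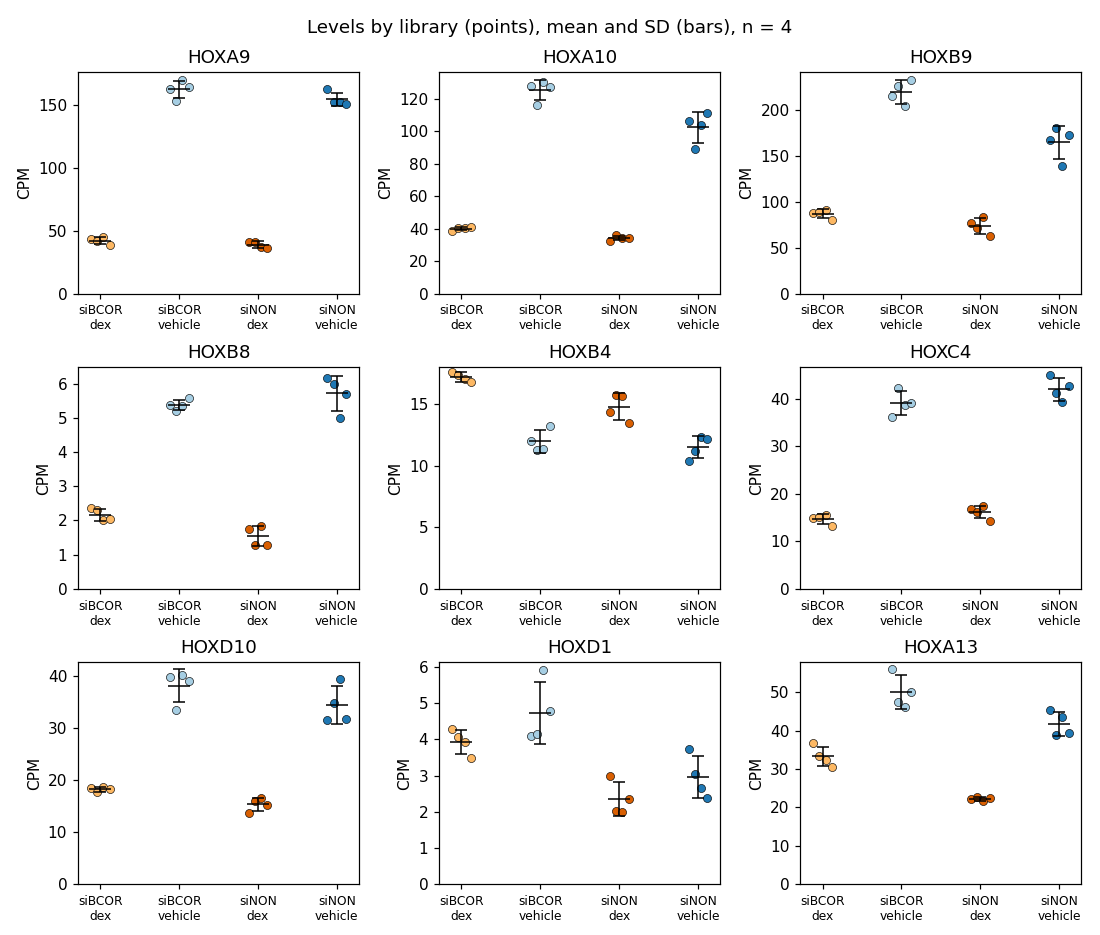
CPM of 9 HOX genes in each of the 16 libraries, with the mean and SD of each group (n = 4). HOXA9, HOXA10, HOXB9, HOXB8, HOXC4 and HOXD10 are lower in dexamethasone in both kinds of cell, HOXB4 is higher, and HOXD1 differs by siRNA.

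BCOR depletion moved fewer HOX genes, less far, and mostly upward. In dexamethasone, 12 of the 36 were higher in siBCOR than in siNON cells and 1 was lower, against 20.4% higher and 18.7% lower of all tested genes. With vehicle, 10 were higher and 1 was lower, against 8.82% and 8.19% of all tested genes. The median log2 fold change of the 36 was 0.15 in dexamethasone and 0.16 with vehicle, where that of all tested genes was 0.025 in both, and no HOX gene changed 2-fold. Without replicate 3 of siNON vehicle the HOX median with vehicle was 0.059 (all tested genes -0.0020), and with upper-quartile scaling that in dexamethasone was 0.087 (all tested genes -0.041). By libraries, siBCOR lay wholly above siNON for 10 HOX genes and below for 1 in dexamethasone (16.6% and 17.6% of all tested genes), and above for 13 and below for 1 with vehicle (10.1% and 7.92%). The comparisons with vehicle share no library with those in dexamethasone, and 7 genes were higher in both: HOXA10, HOXA11, HOXA13, HOXB6, HOXB7, HOXB9 and HOXD1. The share of all tested genes higher in both was not counted, so whether 7 is many cannot be judged here.

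HOXA11, the kidney gene of the cluster, stood at 37.7, 34.9, 39.4 and 36.6 CPM in siBCOR dex libraries, against 28.3, 32.0, 28.8 and 26.1 CPM in siNON dex. With vehicle it stood at 73.6, 67.1, 67.8 and 71.5 CPM in siBCOR cells, against 57.5, 50.2, 48.2 and 54.9 CPM in siNON cells. The siBCOR libraries were higher without overlap in both treatments, by 0.36 ± 0.0748 (edgeR adjusted p = 0.00175) and 0.41 ± 0.0731 (edgeR adjusted p = 0.00119) on the log2 scale. HOXA13, a gene of the digits and the urogenital tract, stood at 36.7, 33.4, 32.4 and 30.6 CPM in siBCOR dex libraries, against 22.3, 22.8, 21.6 and 22.3 CPM in siNON dex, and its groups did not overlap with vehicle either. The log2 fold changes of HOXA13 were 0.58 ± 0.0784 in dexamethasone (edgeR adjusted p = 5.92e-05) and 0.26 ± 0.0763 with vehicle (edgeR adjusted p = 0.0271).

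HOXB6 and HOXB7, adjacent genes of the HOXB cluster, were also higher in both treatments. HOXB6 averaged 19.9 ± 1.53 CPM in siBCOR dex cells and 13.7 ± 0.965 CPM in siNON dex cells, and 36.8 ± 3.95 CPM in siBCOR vehicle cells and 29.5 ± 2.68 CPM in siNON vehicle cells. HOXB7 stood at 26.5, 32.3, 28.3 and 29.2 CPM in siBCOR dex libraries, against 22.8, 24.3, 22.4 and 24.8 CPM in siNON dex, and at 32.7, 31.6, 34.5 and 35.8 CPM in siBCOR vehicle, against 26.5, 24.1, 24.0 and 27.9 CPM in siNON vehicle. The HOXB7 libraries separated by siRNA but overlapped by hormone, the reverse of HOXA9 and HOXA5, whose siRNA groups overlapped. HOXB7 was higher by 0.30 ± 0.0762 in dexamethasone and 0.39 ± 0.0758 with vehicle (edgeR adjusted p = 0.00659 and 0.00222).

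HOXD1, an anterior gene at a low level, had the largest log2 fold changes among HOX genes after depletion, 0.76 ± 0.167 in dexamethasone and 0.67 ± 0.158 with vehicle (edgeR adjusted p = 0.0029 and 0.0084). It stood at 4.28, 4.06, 3.93 and 3.50 CPM in siBCOR dex libraries, against 3.00, 2.03, 2.00 and 2.35 CPM in siNON dex. With vehicle it stood at 4.103, 4.15, 5.93 and 4.78 CPM in siBCOR cells, against 3.74, 3.05, 2.67 and 2.39 CPM in siNON cells.

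Other genes called higher in dexamethasone alone were HOXB4 (0.22), HOXB8 (0.49), HOXD4 (0.60), HOXD8 (0.48) and HOXD10 (0.25), and with vehicle alone HOXC11 (0.33) and HOXD13 (0.20). HOXB2, a hindbrain gene, was lower with vehicle (23.4 ± 2.07 CPM in siBCOR and 31.1 ± 4.56 CPM in siNON cells, log2 fold change -0.41 ± 0.128, edgeR adjusted p = 0.0336), and HOXB13 was lower in dexamethasone (-0.31 ± 0.0741, edgeR adjusted p = 0.0045). HOXB9 and HOXD8 were called in dexamethasone although their siRNA groups overlapped. The lower and higher counts depend on single libraries. With vehicle, 6 HOX genes were higher without replicate 4 of siBCOR vehicle, without replicate 2 or without replicate 3 of siNON vehicle, and HOXB2 was not called without replicate 1 or 3 of siBCOR vehicle or replicate 1 or 4 of siNON vehicle. In dexamethasone, 7 were higher without replicate 1 of siNON dex, and 2 were lower without replicate 3 of siBCOR dex or replicate 4 of siNON dex. Leaving out replicate 4 of siNON dex and replicate 3 of siNON vehicle together gave 9 higher and 3 lower in dexamethasone and 7 higher and 1 lower with vehicle.

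**Figure D4:**
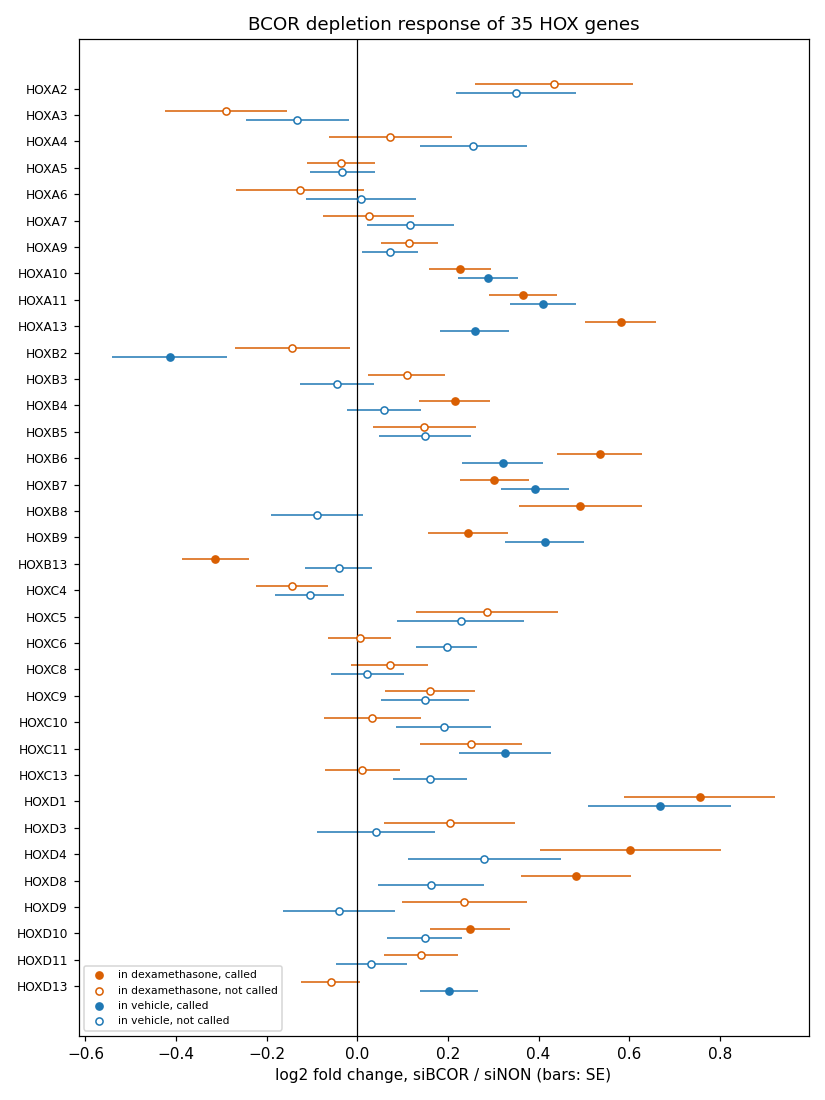
Log2 fold change of siBCOR over siNON for 35 tested HOX genes, with SE bars, in dexamethasone and in vehicle. Filled points passed an adjusted p of 0.05, and all values lie between -0.41 and 0.76.

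The hormone's effect did not differ detectably between siBCOR and siNON cells for any HOX gene. The interaction (hormone response in siBCOR cells minus that in siNON cells) was called for 0 of 36 HOX genes by edgeR and 0 by DESeq2, with 5 at an unadjusted p under 0.05 in each, and edgeR called 0.0183% of all tested genes above 0 and 0.0852% below (0.103% in all). Those at an unadjusted p under 0.05 in edgeR included HOXB8 (0.58 ± 0.169), HOXA13 (0.32 ± 0.109), HOXD13 (-0.26 ± 0.0903) and HOXB13 (-0.27 ± 0.105), all with an adjusted p of at least 0.196. The HOX genes had a median interaction of 0.0048. HOXB8, a gene of myeloid progenitors given here after its values were seen, stood at 2.35, 2.29, 2.01 and 2.03 CPM in siBCOR dex libraries, against 5.36, 5.21, 5.34 and 5.57 CPM in siBCOR vehicle. In siNON cells it stood at 1.75, 1.297, 1.83 and 1.29 CPM with dexamethasone, against 6.17, 6.00, 4.99 and 5.69 CPM with vehicle. It was 2.46-fold lower in siBCOR and 3.67-fold lower in siNON cells, and without replicate 4 of siNON dex and replicate 3 of siNON vehicle its interaction passed (0.59 ± 0.178, edgeR adjusted p = 0.0424). Over all tested genes the interaction count rested on 1 library, since without replicate 4 of siNON dex 1354 genes were above 0 and 1075 below, against 3 and 14 with it, and none of these was a HOX gene.

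BCOR peaks were dense over the HOX clusters. Within 10 kb of the outermost transcripts, HOXA held 6 peaks, HOXB 12, HOXC 6 and HOXD 5 (hg19), or 42.3 to 54.7 peaks per Mb, against 3.89 per Mb over the 3061.2 Mb spanned by the annotation. The authors' lists class 27 of these 29 as shared between treatments and 2 as dex-enriched, and of all 11909 peaks 72.1% as shared and 25.7% as dex-enriched. No peak in the windows was vehicle-enriched. One dex-enriched peak, at hg19 chromosome 17, 46626545 to 46626879, lay within the HOXB3 transcript and 4319 bases upstream of the HOXB2 start. The other, at chromosome 12, 54409126 to 54409460, lay 1343 bases upstream of the start shared by the transcripts used for HOXC4, HOXC5 and HOXC6. The peak lists carry no height, so these peaks cannot be ranked, and how a peak was given its class is not stated.

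A peak within 1 kb of the start of the transcript used was found for 8 of the 39 HOX genes (20.5%), against 16.1% of 19368 protein-coding genes, and all 8 peaks were shared ones. Their centres lay 336 bases upstream of HOXA9, 753 upstream of HOXB3, 212 upstream of HOXD11 and 924 upstream of HOXB8, and 878 downstream of the start of HOXA4, 718 of HOXB4, 439 of HOXC13 and 805 of HOXD8. Counting the start of any isoform added HOXC5 and HOXC6, for 10 of 39 (25.6%), against 17.4% of protein-coding genes. Within 5 kb of the transcript used the count was 22 of 39 (56.4%), against 21.2% of protein-coding genes. Of the 29 peaks, 10 had their centre within 1 kb and 24 within 5 kb of the start of any HOX isoform. The 8 genes with a peak within 1 kb included HOXA9 and HOXB4, which moved in opposite directions with dexamethasone. In siNON cells, 6 of those 8 fell (median -0.90), against 24 of the 28 tested genes without one (median -0.84). HOXC5 and HOXC6, whose peaks lie near the start of another isoform, are counted among the 28. After BCOR depletion with vehicle, 0 of the 8 were higher, against 10 of the 28, and in dexamethasone 3 of the 8 and 9 of the 28 were. These differences were not tested, and binding was measured at 1 h and RNA at 6 h.

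**Figure D5:**
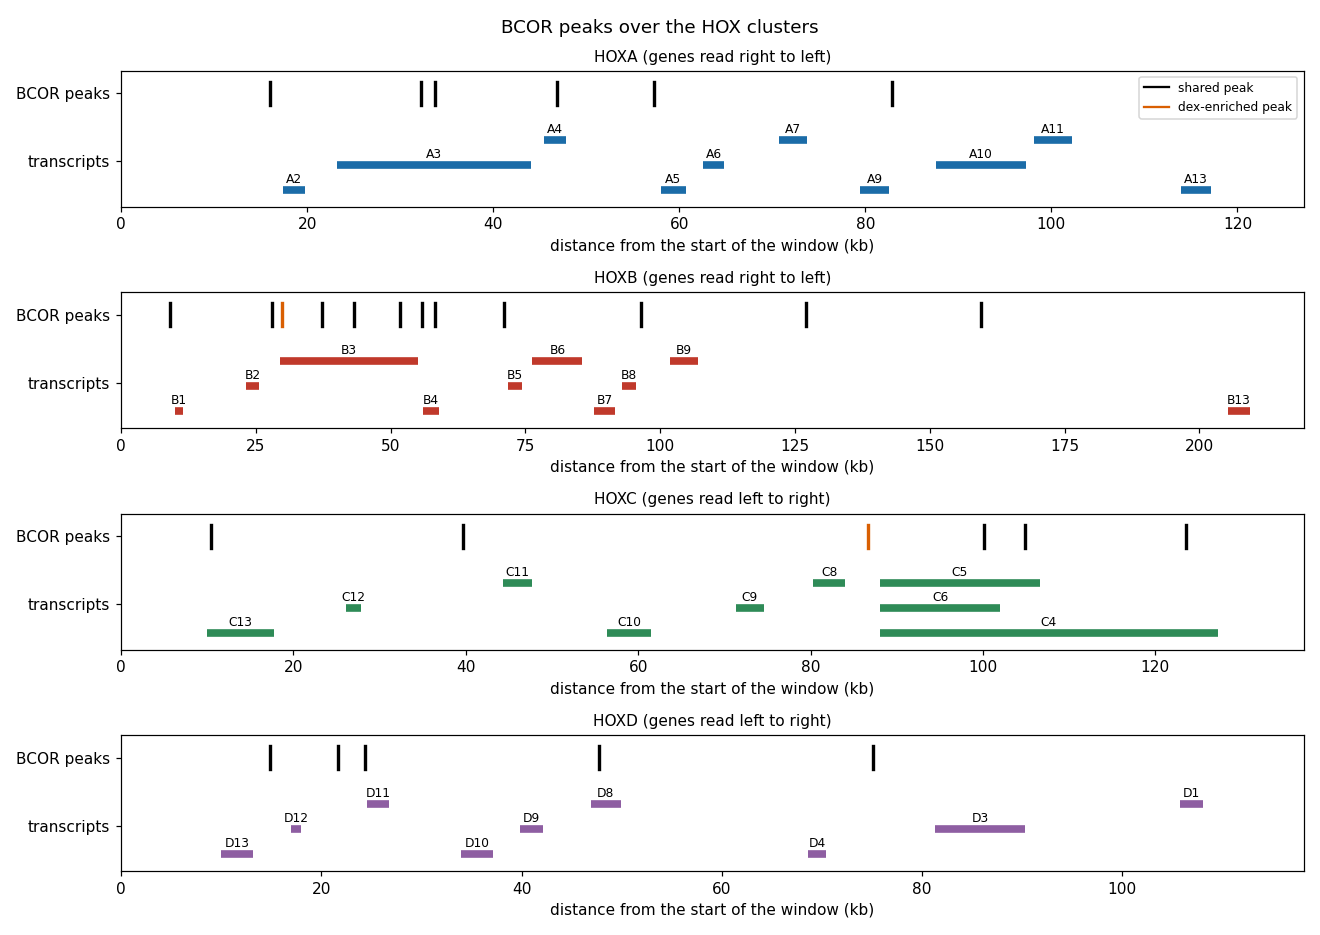
Chosen HOX transcripts and BCOR peaks over each cluster, drawn to scale as distance in kb from the start of its window. Black ticks are the 27 shared peaks and orange ticks the 2 dex-enriched ones, and peaks are spread between genes as well as at their starts.

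Several HOX transcripts overlap a neighbour in span. Exons were not compared, so how many reads such pairs share was not tested. Of the 39 transcripts used, 19 span part of another gene: 7 overlap a gene on the same strand, 14 one on the opposite strand and 4 another HOX gene. HOXA9 (35853 reads over all libraries) and HOXA10 (27238 reads) lie within HOXA10-HOXA9, a readthrough transcript with 34698 reads, but do not overlap each other, so each may share reads with the readthrough. The transcripts used for HOXC4 (10095 reads), HOXC6 (9616) and HOXC5 (1505) are annotated from 1 start, though each gene also has an isoform with another start. HOXB4 (5054 reads) lies within a long HOXB3 isoform with 8322. Opposite-strand partners included HOTAIR (5213 reads) for HOXC11 (1962), HAGLR (9866) for HOXD1 (1270), HOXA-AS3 (8421) for HOXA6 (2586) and HOXA7 (5331), and HOXB-AS3 for HOXB5 and HOXB6. They also included a HOXA-AS3 isoform (7974) for HOXA5 (10024) and HOXA10-AS (14751) for HOXA10. The table header names no strand option, while its library names carry the word flip, so whether counting used strand is not known. Whether reads from exons that an opposite-strand pair shares were kept apart is therefore open. Over all transcripts the counts came to 2.72 to 2.77 times the library totals, so a read can count for more than 1 transcript. After depletion the higher HOXD1 stands beside HAGLR, called higher in both treatments (0.24 in dexamethasone, 0.31 with vehicle). HOXC11 and HOTAIR were called in different treatments. HOXC11 was called higher with vehicle (0.33) and not in dexamethasone (0.25, edgeR adjusted p = 0.0852). HOTAIR was called higher in dexamethasone (0.29) and not with vehicle (0.18, edgeR adjusted p = 0.133).

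The noncoding and readthrough transcripts of the clusters moved mostly in the direction of the HOX genes. Several of them, HOXA10-HOXA9 included, overlap HOX genes in span, so they are not a separate set of reads. How many reads they share with those genes was not tested. With dexamethasone 13 of 17 tested fell and 1 rose in siBCOR cells, with a median of -0.69, against 12.6% and 10.4% of all tested genes. In siNON cells 12 fell and 0 rose, with a median of -0.62, against 8.59% and 10.6% of all tested genes. HOXA10-HOXA9 fell by 2.02 in siBCOR and 2.01 in siNON cells on the log2 scale, HOXA10-AS by 1.67 and 1.55, and HOXA11-AS by 1.23 and 1.304. HAGLROS rose in siBCOR cells (1.15 ± 0.287). After BCOR depletion 6 of the 17 were higher and 1 lower in dexamethasone, against 20.4% and 18.7% of all tested genes, and 7 were higher and 0 lower with vehicle, against 8.82% and 8.19%. HOXA11-AS was higher by 0.60 in dexamethasone and 0.53 with vehicle, HOTTIP, the transcript at the HOXA13 end, by 0.79 and 0.56, and HOTAIRM1 by 0.49 and 0.46. Of 9 tested protein genes that flank the clusters, 1 fell with dexamethasone in each kind of cell (SKAP2, -0.48 in siBCOR and -0.72 in siNON cells), a share near that of all tested genes (12.6% and 8.59%). After depletion 1 of the 9 was higher in dexamethasone and 2 with vehicle, against 20.4% and 8.82% of all tested genes.

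Among the proteins that bind DNA with HOX factors, 6 of 9 fell in siBCOR and 4 of 9 in siNON cells, against 12.6% and 8.59% of all tested genes, and 0 and 1 rose, against 10.4% and 10.6%. PBX3 fell by 0.79 and 0.77, MEIS1 by 0.68 and 0.53, and MEIS2 by 0.64 and 0.77 on the log2 scale, while PBX2 rose in siNON cells (0.23). The list had a median of -0.48 in siBCOR and -0.39 in siNON cells. After depletion 1 of the 9 was higher and 1 lower in dexamethasone, against 20.4% and 18.7% of all tested genes, and 2 were higher and 1 lower with vehicle, against 8.82% and 8.19%. PBX2 was the 1 lower in both treatments (-0.42 in dexamethasone, -0.22 with vehicle).

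Regulators that act upstream of HOX genes moved less evenly. CDX2, a homeodomain activator of posterior HOX genes, fell in siBCOR (-0.82 ± 0.112) and in siNON cells (-0.99 ± 0.112), and PDX1 was the only other tested gene of its list, 0.47 lower in siNON cells. Of 16 tested retinoic acid genes, 8 fell and 0 rose in siBCOR cells (median -0.26), and 4 fell and 1 rose in siNON cells (median -0.13), where 12.6% of all tested genes fell and 10.4% rose in siBCOR cells and 8.59% fell and 10.6% rose in siNON cells. The receptor gene RARB fell by 0.53 and 0.52, and CYP26A1, which degrades retinoic acid, by 0.36 and 0.54, while RXRG fell in siBCOR cells (-0.92). After depletion 7 of the 16 retinoic acid genes were lower and 1 higher in dexamethasone, against 18.7% and 20.4% of all tested genes, and 3 were lower and 1 higher with vehicle, against 8.19% and 8.82%. CYP26A1 (-0.35 in dexamethasone, -0.52 with vehicle), CYP26B1 (-0.51 and -0.40) and the retinaldehyde dehydrogenase ALDH1A2 (-0.39 and -0.26) were lower in both treatments, and RXRG in dexamethasone (-0.83). RXRB was the 1 higher in each treatment (0.20 in dexamethasone, 0.38 with vehicle).

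Chromatin regulators showed no common direction with the hormone. Of 34 tested Polycomb genes, 3 rose and 3 fell in siBCOR cells (median 0.044), and 5 rose and 2 fell in siNON cells (median -0.018), the list holding BCOR itself. Of all tested genes, 10.4% rose and 12.6% fell in siBCOR cells, and 10.6% rose and 8.59% fell in siNON cells. PHF19, an accessory subunit of Polycomb repressive complex 2, rose by 0.29 in siBCOR and 0.54 in siNON cells on the log2 scale, and JARID2, another, fell by 0.39 and 0.28. Of 17 trithorax and MLL genes, 0 rose and 2 fell in siBCOR cells and 1 rose and 1 fell in siNON cells, KDM6A falling in both (-0.27 and -0.40). After depletion 6 Polycomb genes were higher and 10 lower in dexamethasone, against 20.4% and 18.7% of all tested genes, and 4 were higher and 6 lower with vehicle, against 8.82% and 8.19%. PCGF5, which defines another variant of complex 1, was lower (-1.15 in dexamethasone, -1.83 with vehicle), as were PHC2 (-0.75 and -0.45) and RING1 (-0.57 and -0.53), for which the deposited annotation lists several copies. Of the 17 trithorax and MLL genes, 4 were higher and 1 lower in dexamethasone, and 2 were higher and 0 lower with vehicle, beside the same shares of all tested genes.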

How the data were processed

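The authors deposited raw counts of reads on exons for RefSeq transcripts of hg19. HOMER made them, per the file headers, with depth left unadjusted and no strand option named. Trimmomatic, TopHat2, FastQC, Bowtie 0.12.9, HOMER 4.10.3 and bedtools are named in the submitters' processing notes. The authors also deposited 3 BCOR peak lists, in which the score is 0 for every peak, and exon lengths.

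Isoforms share reads, so the transcript with the most reads stood for each symbol, and 134 transcripts without a symbol (0.0664% of counts) were left out. For HOXA10 and HOXC5 it was an entry that RefSeq classes as noncoding. The coding HOXA10 transcript had 26463 reads, against 27238 for the one used, and another length and start. Libraries were scaled by TMM, low genes were removed with edgeR's default filter (16432 kept, 36 of them HOX genes), and quasi-likelihood F tests in edgeR 4.0.16 (R 4.3.3) compared the 4 groups in 1 fit. P-values are two-sided, Benjamini-Hochberg adjusted across all tested genes, with calls at 0.05. CPM and RPKM were computed from the counts with scaled library sizes and exon length. Peaks were assigned by overlap with cluster windows and with 1 kb either side of the start of the transcript used. The model was tested on simulated data. Alternatives were DESeq2 1.42.0, other scalings, filters and transcripts, a replicate block, and leaving out libraries.

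The rule named BCOR, the 2 HOX genes of each cluster with the highest mean, up to 4 called HOX genes per direction and comparison by adjusted p, and up to 3 called members of each gene list. HOX genes and lists were chosen with earlier results of these data known. Replicate numbers are not stated to pair the samples, and the main fit did not pair them. The labels name no batch or date. The series text names 3 replicates, while 4 are labelled and were used. Results of some genes are not reported here.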

Additional observations from a re-analysis of the deposited data

Results flagged for a closer look

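In 2 of 68 sets of 4 libraries examined (17 named genes in 4 groups), 1 library stood apart from the other three by more than Dixon's test allows at 95%, which chance gives in about 1 of 20 sets. HOXA9 was 162.4 CPM in replicate 1 of siNON vehicle, where the nearest of the others was 152 CPM. HOXD10 was 33.4 CPM in replicate 2 of siBCOR vehicle, where the nearest was 39.1 CPM.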

How the results depend on the processing

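Over 26 alternatives, no called HOX gene changed direction in any comparison. Of the values of called genes under these alternatives, 4 of 806 for dexamethasone in siBCOR cells and 3 of 832 in siNON cells missed the threshold, against 45 of 338 for depletion in dexamethasone and 49 of 286 for depletion with vehicle. Those lost most often were HOXB4 (16 alternatives) and HOXB9 (14) in dexamethasone and HOXC11 (14) and HOXD13 (14) with vehicle. Depletion with vehicle gave 10 HOX genes higher, but 6 without the filter on low counts and 6 when only the compared groups were fitted, and 1 lower but 0 with the replicate block, which changed no other HOX count by over 1.5 times. Over all tested genes the block gave 3 interactions below 0 and 0 above, against 14 and 3 without it. Correlations between the deviations of same-numbered libraries were over 0.1 in every pair of no comparison, though all 4 were positive, from 0.036 to 0.304, for depletion in dexamethasone. Without replicate 4 of siNON dex and replicate 3 of siNON vehicle together, 3 HOX genes were lower after depletion in dexamethasone (1 with all libraries), and 1 interaction was called above 0 (0 with all). The causes were not tested. HOX genes with a peak at the start were 8 within 1 kb, 22 within 5 kb and, with the start of any isoform (chosen after seeing the data), 10 within 1 kb. Leaving out 1 library at a time gave 29 to 31 lower and 1 to 1 higher with dexamethasone in siBCOR cells, 29 to 31 lower and 2 to 2 higher in siNON cells, 7 to 12 higher and 1 to 2 lower after depletion in dexamethasone, 6 to 10 higher and 0 to 1 lower after depletion with vehicle, and 0 to 0 interactions. Using the transcript of the shortest span, chosen after seeing the data, gave 30 lower in each kind of cell. Low counts limit HOXB1, HOXC12 and HOXD12.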
